A study of Homo sapiens with 6 samples.

Results

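Kinesins are motor proteins that bind microtubules and turn over ATP, and most of them walk along the filament or shorten its ends. In dividing cells one set of kinesins builds the bipolar spindle, moves chromosomes and completes cytokinesis, and the transcripts of many of these motors are known to peak in G2 and mitosis. Another set carries vesicles, organelles and protein complexes through the cytoplasm at all stages of the cell cycle. The members described here were the genes whose symbol is KIF followed by a number and an optional letter A to C, or KIFC1, KIFC2 or KIFC3. The rule found 42 of the 61806 genes in the deposited table. They were divided by their known roles into 15 mitotic kinesins, 15 transport kinesins and 12 others, which act in cilia, signalling or at the cell cortex or are less well described.

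The data were RNA-seq libraries of HCT116, an established human colorectal carcinoma line, grown in McCoy's 5A medium with serum and antibiotics. In one group of 3 libraries (si-NC, genotype given as wildtype) the cells were controls, and in the other group of 3 (si-STRIP2, genotype given as STRIP2 knockdown) STRIP2 was knocked down. Its protein is a component of STRIPAK, a large assembly of kinases with a phosphatase. The labels give neither the duplex sequences, nor the number of duplexes against STRIP2, nor the time after transfection, and separate cultures are not mentioned, so that p-values measure the spread between these libraries, which may be technical. The design compares transcript levels of these groups.

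STRIP2 was at 3.19, 3.77 and 3.81 FPKM (counts relative to library total and exonic size) in the si-NC libraries and at 2.71, 2.53 and 2.58 FPKM in the si-STRIP2 libraries, so that 72.6% of the control level remained. Total counts ranged from 17184963 to 21721218 per library. The mitochondrial share of counts ranged from 4.88% to 8.88% in si-NC and from 5.73% to 6.30% in si-STRIP2, which overlap. Of the 8 markers of colorectal epithelium, VIL1 and CDX1 were at or near 0, and the summed level of the list was 691 to 721 FPKM in si-NC and 667 to 691 FPKM in si-STRIP2. Of its 6 tested members, 2 rose and 3 fell, so the sum joins changes in opposite directions. CDH1 (E-cadherin) fell from 36.6 ± 1.43 to 24.2 ± 0.318 FPKM (SD, n = 3; log2 fold change -0.60, adjusted p = 1.57e-14), the keratin KRT19 rose by 0.22 and the keratin KRT18 fell by 0.18 on the log2 scale. The part of these changes in the results on kinesins was not tested. The 11 markers of other cell types summed to 2.58 to 2.81 FPKM in si-NC and 2.18 to 2.80 FPKM in si-STRIP2, most of it COL1A1, while INS and COL1A2 were at 0 in all libraries. The edgeR test called 54.8% of the 15687 genes tested at an adjusted p under 0.05, 27.8% higher and 27.0% lower in si-STRIP2, and the counts of kinesins are read against these shares. Among the 6726 tested genes with at least 5 FPKM in si-NC, 33.4% were called higher and 35.8% lower.

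Most mitotic kinesins held 1 or both of 2 short motifs in their promoters, which the naming rule did not use. The motifs are shown with the calls already known, and their part in the changes was not tested. The cell cycle genes homology region (CHR), here the letters TTTGAA, is a known element of genes expressed in G2 and mitosis, and the CCAAT box, here the letters CCAAT, is bound by NF-Y. Both strands were searched in the RefSeq window (GRCh38.p14) from 250 bases before to 50 bases after each gene's start, and 34 of the 42 kinesins had a window. The CHR letters were found in 9 of the 13 tested mitotic kinesins (69.2%), in 1 of the 10 tested transport kinesins with a window (10.0%), in 0 of the 6 tested others with a window and in 15.2% of all 35116 windows. The CCAAT letters were found in 10 of 13 mitotic kinesins (76.9%), 3 of 10 transport kinesins (30%), 2 of 6 others (33.3%) and 34.6% of all windows. The shares over all windows were not limited to genes tested here, unlike those of the kinesins. No match of one motif overlapped a match of the other in a kinesin window (0 overlaps). A match is a description of letters and not evidence of binding. Only these exact letters were searched, so a window without them may still hold a variant of either element.

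The stretches of 30 bases around the CHR letters of the 9 mitotic kinesins, and of KIF5B as the one transport kinesin with a match, are given 5′ to 3′ on the strand of the gene. Capitals mark CHR letters, TTTGAA or its reverse complement TTCAAA, and CCAAT boxes (CCAAT or ATTGG).
KIF11, chr10:92593090-92593119, plus strand: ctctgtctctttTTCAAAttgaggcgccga
KIF14, chr1:200620733-200620762, minus strand: gcggggcgcccaTTCAAAttgcggccttct
KIF15, chr3:44761747-44761776, plus strand: ccaagcgccaaaTTCAAAtttgcggccatc
KIF18A, chr11:28108149-28108178, minus strand: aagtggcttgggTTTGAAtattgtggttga
KIF18B, chr17:44947754-44947783, minus strand: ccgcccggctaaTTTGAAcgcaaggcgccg
KIF20B, chr10:89701602-89701631, plus strand: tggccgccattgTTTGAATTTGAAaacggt
KIF23, chr15:69414282-69414311, plus strand: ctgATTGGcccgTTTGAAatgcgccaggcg
KIF4A, chrX:70290058-70290087, plus strand: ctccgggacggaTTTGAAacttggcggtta
KIFC1, chr6:33391815-33391844, plus strand: tggccgttggaaTTCAAAagtggcgggtgt
KIF5B, chr10:32056548-32056577, minus strand: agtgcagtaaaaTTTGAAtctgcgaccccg
In the mitotic kinesins these matches lay between 55 bases before and 36 bases after the RefSeq start, whereas the match of KIF5B began 140 bases before it. KIF20B held the CHR letters in tandem. KIF20A and KIF22 (log2 fold changes 0.77 and 0.70) held CCAAT letters but no CHR letters, and KIF2A and KIF2C held neither. The log2 fold change of KIFC1, which held both, was also 0.70.
KIF20A, chr5:138179033-138179062, plus strand: cttccctatctgATTGGccgaacgaacgca
KIF22, chr16:29790673-29790702, plus strand: cgcgtagtcttgATTGGtggaacctgggag
The 150 bases before the start of KIF20B, which hold 2 CCAAT boxes upstream of the tandem CHR letters, read as follows.
KIF20B, chr10:89701440-89701589, plus strand: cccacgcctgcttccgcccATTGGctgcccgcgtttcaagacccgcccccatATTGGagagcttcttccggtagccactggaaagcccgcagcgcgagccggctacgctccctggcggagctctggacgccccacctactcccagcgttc

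**Figure D1:**
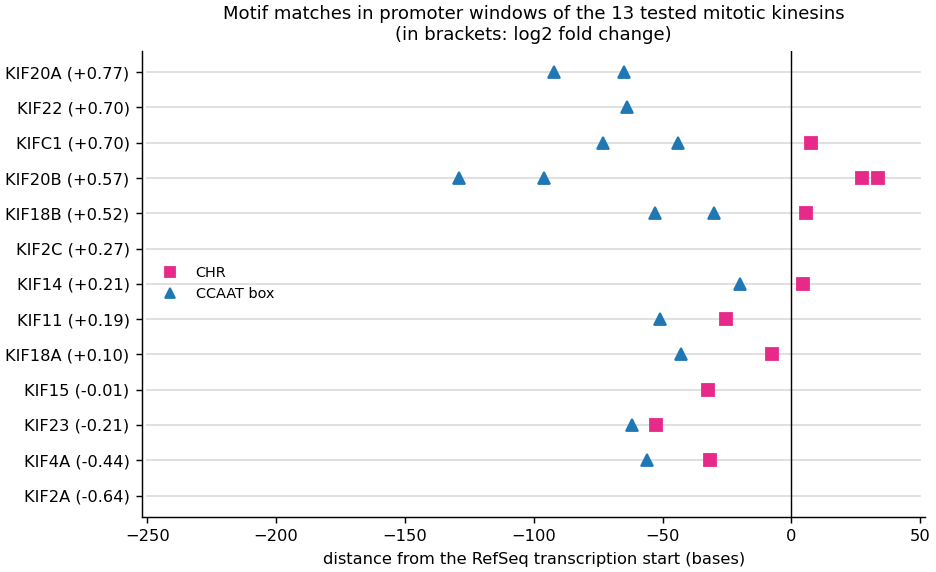
Positions of CHR letters (squares) and CCAAT letters (triangles) in the promoter windows of the 13 tested mitotic kinesins, ordered by log2 fold change (in brackets), against distance in bases from the RefSeq transcription start at 0. Squares lie near the start in 6 genes that rose, in KIF23 and KIF4A, which fell, and in KIF15, which was not called, while KIF20A, KIF22, KIF2C and KIF2A have none.

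Of the 42 kinesins, 36 passed the filter on low counts and were tested, and 31 had a mean of at least 1 FPKM in one of the groups. The 6 kinesins that did not pass had at most 6 counts in any library. These were KIF1A, a motor of synaptic vesicle precursors in neurons, KIF6, KIF19, KIF25, KIF2B and KIF4B. KIF2B had 0 counts in all 6 libraries, which allows a level of up to 0.0770 FPKM in the shallowest library (3 counts, counting error only). KIF4B, an intronless copy of KIF4A, had 1 to 6 counts per library. Its longest coding transcript in GENCODE was 95.6% identical to that of KIF4A over 4343 aligned bases, and reads shared by the copies could be lost or divided in counting.

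KIF5B, the ubiquitous heavy chain of conventional kinesin (kinesin-1), was the most abundant member, at 123.8 ± 6.43 FPKM (SD, n = 3) in si-NC, rank 240 of the tested genes. KIF2C followed at 37.6 ± 0.443 FPKM, KIF23 at 32.5 ± 0.960 FPKM, KIF11 at 26.4 ± 1.03 FPKM and KIF18A at 21.9 ± 0.879 FPKM (SD, n = 3 each). The si-NC ranges of these 5 genes did not overlap, whereas those of the next genes, KIFC1, KIF3B, KIF4A, KIF1C and KIF20A, overlapped their neighbours at means from 16.9 to 18.0 FPKM. Only 5 transport kinesins but all 13 tested mitotic kinesins reached 5 FPKM in si-NC. The deposited size joins all exons of a gene, so long alternative exons lower its FPKM. With the longest coding transcript of GENCODE as length, KIF22 moved from rank 14 to rank 5 in the family and KIF2A from rank 15 to rank 4, while KIF5B stayed at rank 1. These lengths do not touch the comparison of a single gene between groups, but they weight the genes in sums, shares and ratios of FPKM. By transcript length, KIF2C was at 46.4 and KIF2A at 37.1 in si-NC, against 37.6 and 9.56 FPKM with the deposited size.

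**Figure D2:**
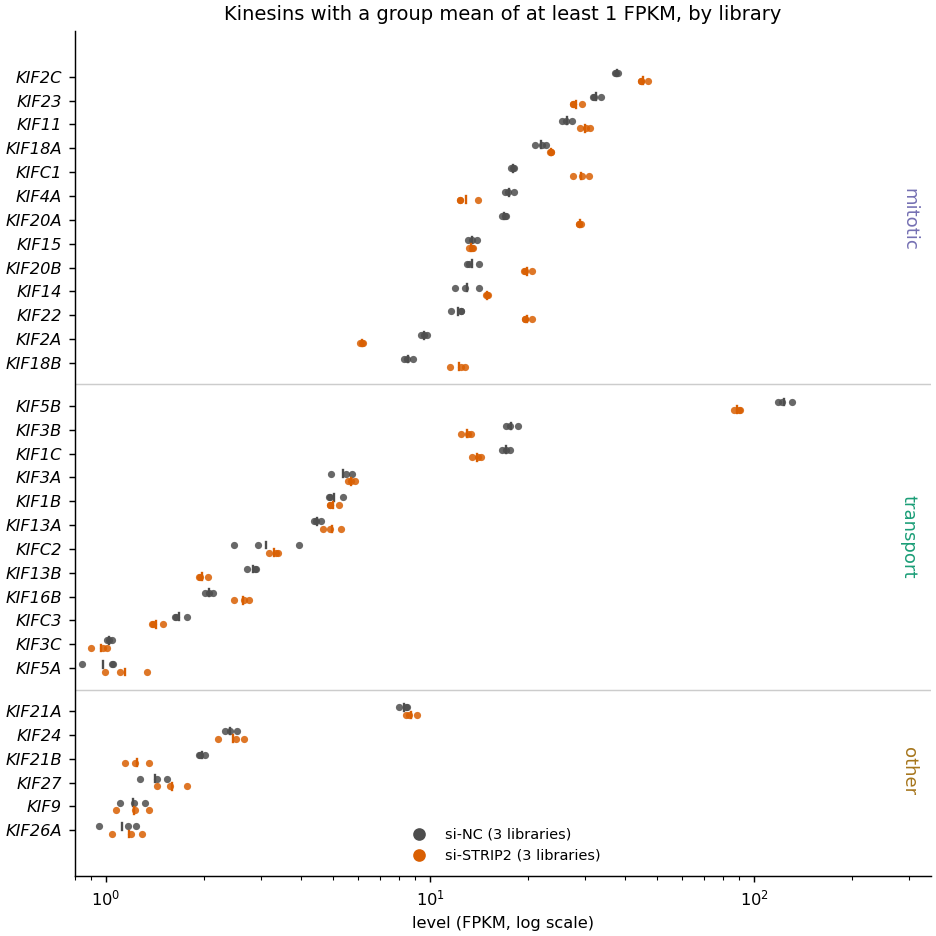
Level in FPKM (log axis) of the 31 kinesins with a group mean of at least 1 FPKM, with 1 point per library and a tick at each group mean, si-NC in grey and si-STRIP2 in orange. KIF5B stands apart at 119 to 131 FPKM in si-NC and 86.4 to 90.2 FPKM in si-STRIP2, and in most mitotic kinesins the orange points lie to the right of the grey ones.

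Among the mitotic kinesins, 9 of the 13 tested rose in si-STRIP2 cells (69.2%, against 27.8% of all genes tested), 3 fell (23.1%, against 27.0%) and KIF15 was not called. All 13 were at 5 FPKM or more in si-NC, where 33.4% of genes were called higher and 35.8% lower. Their median log2 fold change was 0.21, against 0.014 over all genes. The groups did not overlap in FPKM for 9 mitotic kinesins that were higher and 3 that were lower, against 30.2% and 29.1% of all genes tested (59.3% in either direction). In the edgeR test against a 1.2-fold change, 5 were past the threshold upwards (KIF20A, KIF22, KIFC1, KIF20B and KIF18B) and 2 downwards (KIF2A and KIF4A). Over all genes these shares were 11.3% and 12.4% (23.7% in either direction). In bulk RNA, more or fewer cells of a type or cycle phase and more or less RNA per cell cannot be told apart.

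The kinesin-6 motors, which organise the central spindle and midbody in cytokinesis, moved in both directions. KIF20A (MKLP2; chromosome 5, 138178719 to 138187723, plus strand), which carries the chromosomal passenger complex to the central spindle, was at 17.1, 17.1 and 16.6 FPKM in si-NC and at 28.8, 29.2 and 28.7 FPKM in si-STRIP2. The groups were far apart and the log2 fold change was 0.77 (SE 0.0431, adjusted p = 1.44e-16), the largest rise among the mitotic kinesins. CDC23 and BRD8, which overlap KIF20A on the opposite strand, held 81.2% and 75.2% as many counts and rose by 0.38 and 0.51 on the log2 scale, and since the strand setting of the counting is not given in the sources used here, their part in the value of KIF20A was not tested. KIF20B (chromosome 10, 89701590 to 89774939, plus strand), a further motor of the midbody, was at 12.95, 14.18 and 13.15 FPKM in si-NC and at 19.6, 19.5 and 20.7 FPKM in si-STRIP2. Its log2 fold change was 0.57 (SE 0.0438, adjusted p = 4.53e-13), and no gene overlaps it in the table. KIF23 (MKLP1; chromosome 15, 69414246 to 69448427, plus strand), the motor subunit of centralspindlin, was at 31.9, 33.6 and 32.0 FPKM in si-NC and at 29.3, 27.7 and 27.7 FPKM in si-STRIP2. It fell by 0.21 on the log2 scale (SE 0.0398, adjusted p = 4.50e-05), with each si-STRIP2 library below each si-NC library. This fall was not past the threshold in the test against a 1.2-fold change. The summed level of the 3 kinesin-6 genes was 62.9 ± 1.71 FPKM in the si-NC libraries and 77.05 ± 0.640 FPKM in the si-STRIP2 libraries, and the share of KIF23 in it was 51.7% ± 0.210 and 36.6% ± 0.993 (SD, n = 3). The ratio of KIF20A to KIF23 was 0.537, 0.507 and 0.519 in si-NC and 0.980, 1.06 and 1.04 in si-STRIP2. This ratio, the sum and the share depend on the deposited exonic sizes.

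The chromokinesins bind chromosome arms and push them towards the spindle equator. KIF22 (Kid; chromosome 16, 29790727 to 29805385, plus strand) was at 12.4, 11.6 and 12.5 FPKM in si-NC and at 20.6, 19.6 and 19.6 FPKM in si-STRIP2. This was a 1.63-fold rise (log2 fold change 0.70, SE 0.0434, adjusted p = 1.52e-15). KIF4A (chromosome X, 70290104 to 70420886, plus strand), which binds PRC1 and sets the length of the central spindle, was at 17.3, 18.1 and 17.0 FPKM in si-NC and at 12.33, 14.01 and 12.39 FPKM in si-STRIP2. It fell to 73.9% of the control level (log2 fold change -0.44, SE 0.0498, adjusted p = 3.11e-09), so that both chromokinesins changed by over 1.2-fold in opposite directions. PDZD11, which overlaps KIF4A on the opposite strand with 29% as many counts, had a log2 fold change of 0.17 (adjusted p = 0.0633).

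The kinesin-13 members do not walk but take tubulin off microtubule ends. KIF2C (MCAK; chromosome 1, 44739818 to 44767767, plus strand), which corrects faulty attachments at the centromere, was at 37.3, 38.1 and 37.4 FPKM in si-NC and at 44.7, 46.9 and 44.6 FPKM in si-STRIP2. It rose by 0.27 on the log2 scale (SE 0.0403, adjusted p = 7.68e-07). KIF2A (chromosome 5, 62306162 to 62391025, plus strand), which acts at spindle poles and also in non-dividing cells, was at 9.57, 9.75 and 9.37 FPKM in si-NC and at 6.07, 6.22 and 6.14 FPKM in si-STRIP2. It fell to 64.2% of the control level, the largest fall among the mitotic kinesins (log2 fold change -0.64, SE 0.0421, adjusted p = 7.61e-15). DIMT1, which overlaps it on the opposite strand with 36.2% as many counts, had a log2 fold change of 0.026 (adjusted p = 0.728). The ratio of KIF2C to KIF2A was 3.93 ± 0.0497 in the si-NC libraries and 7.39 ± 0.140 in the si-STRIP2 libraries (SD, n = 3). Its size in each group depends on the deposited exonic sizes.

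Spindle bipolarity depends on KIF11 (Eg5), the kinesin-5 that slides antiparallel microtubules apart, with KIF15 as a partly redundant partner and KIFC1 (HSET) pulling in the opposite sense. KIFC1 (chromosome 6, 33391823 to 33409896, plus strand), which clusters centrosomes in cancer cells, was at 17.7, 18.0 and 18.2 FPKM in si-NC and at 29.4, 30.8 and 27.7 FPKM in si-STRIP2. It rose 1.63-fold (log2 fold change 0.70, SE 0.0472, adjusted p = 1.398e-14). KIF11 (chromosome 10, 92574105 to 92655395, plus strand) was at 25.4, 27.5 and 26.3 FPKM in si-NC and at 31.1, 30.4 and 28.9 FPKM in si-STRIP2. Its rise was smaller, at 0.19 on the log2 scale (SE 0.0411, adjusted p = 0.000212). KIF15 (chromosome 3, 44761721 to 44873376, plus strand) was at 13.42, 13.95 and 13.08 FPKM in si-NC and at 13.5, 13.6 and 13.1 FPKM in si-STRIP2, and the groups overlapped. Its log2 fold change was -0.013, with a 95% interval from -0.10 to 0.076 (adjusted p = 0.833).

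The kinesin-8 motors dampen chromosome movements (KIF18A) and shorten astral microtubules (KIF18B). KIF18B (chromosome 17, 44924709 to 44947773, minus strand) was at 8.50, 8.28 and 8.82 FPKM in si-NC and at 12.8, 12.5 and 11.5 FPKM in si-STRIP2, a log2 fold change of 0.52 (SE 0.0530, adjusted p = 3.12e-10). KIF18A was at 21.0, 22.7 and 22.1 FPKM in si-NC and at 23.6, 23.6 and 23.5 FPKM in si-STRIP2. Its log2 fold change of 0.10 (SE 0.0421, adjusted p = 0.0421) was the smallest called change in the family, and its call was lost under 10 of 15 alternatives, among them DESeq2 (adjusted p = 0.159). KIF14, a kinesin-3 that recruits citron kinase to the midbody, was at 11.96, 14.11 and 12.80 FPKM in si-NC and at 15.0, 15.1 and 14.9 FPKM in si-STRIP2. It rose by 0.21 on the log2 scale (SE 0.0463, adjusted p = 0.000234), and the si-NC library nearest to the si-STRIP2 libraries was replicate 2.

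**Figure D3:**
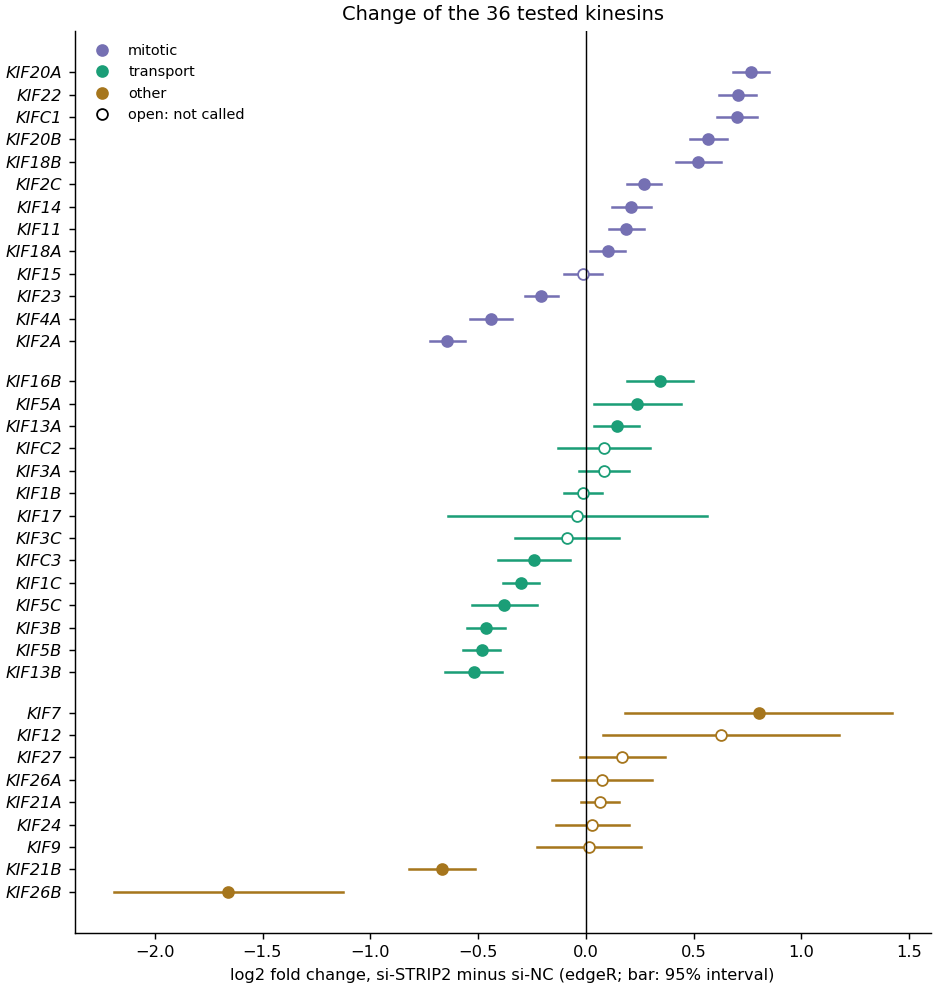
Log2 fold change (si-STRIP2 minus si-NC) of the 36 tested kinesins by class, with the 95% interval as a bar, filled where the edgeR adjusted p was under 0.05 and open where it was not. Mitotic kinesins run from 0.77 for KIF20A to -0.64 for KIF2A, and transport kinesins from 0.34 for KIF16B to -0.52 for KIF13B.

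Mitotic kinesins with and without the CHR letters were called in both directions. Of the 9 with the letters, 6 rose, 2 fell and 1 was not called, and of the 4 without them, 3 rose and 1 fell. Over all genes tested, 27.8% were called higher and 27.0% lower. KIF18A, whose call was lost under 10 of 15 alternatives, is among the 6 that rose. The sets are small, and a link of the letters to direction was not tested. The members with the letters that fell were KIF4A and KIF23, and the member without them that fell was KIF2A.

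Among the transport kinesins, 6 of the 14 tested fell in si-STRIP2 cells (42.9%, against 27.0% of all genes tested), 3 rose (21.4%, against 27.8%) and 5 were not called. Their median log2 fold change was -0.063, against 0.014 over all genes. It was -0.136 without si-NC replicate 3, -0.124 without si-STRIP2 replicate 3 and -0.026 under limma on log2(FPKM + 1). The 3 that fell among those with at least 5 FPKM in si-NC were KIF5B, KIF3B and KIF1C, and the other two at that level, KIF3A and KIF1B, were not called. These 3 were 60.0% of the 5 transport kinesins at that level, against 35.8% called lower among all genes at that level. In the test against a 1.2-fold change, 3 transport kinesins were past the threshold downwards (KIF5B, KIF3B and KIF13B) and 0 upwards, against 12.4% and 11.3% of all genes tested.

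KIF5B (chromosome 10, 32009015 to 32056425, minus strand) was at 122, 131 and 119 FPKM in si-NC and at 86.4, 90.2 and 89.6 FPKM in si-STRIP2. It fell to 71.7% of the control level (log2 fold change -0.48, SE 0.0435, adjusted p = 1.87e-11), and no gene overlaps it in the table. KIF5B alone made up 66.4% ± 0.779 of the summed level of the transport kinesins in the si-NC libraries and 61.8% ± 0.536 in the si-STRIP2 libraries (SD, n = 3). Its neuronal relative KIF5C was at 0.630, 0.700 and 0.620 FPKM in si-NC and at 0.510, 0.510 and 0.490 FPKM in si-STRIP2, a fall of 0.38 on the log2 scale (SE 0.0773, adjusted p = 9.46e-05). KIF5A, the other neuronal heavy chain, was at 0.840, 1.05 and 1.04 FPKM in si-NC and at 1.34, 0.990 and 1.10 FPKM in si-STRIP2. These groups overlapped, the adjusted p of 0.04997 lay just inside the threshold, and DCTN2 on the opposite strand held 704% as many counts, so that the rise of 0.24 on the log2 scale is uncertain.

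Kinesin-2 motors carry cargo along cilia and in the cytoplasm as a heterotrimer of KIF3A with KIF3B or KIF3C and the adaptor KIFAP3. KIF3B (chromosome 20, 32277651 to 32335011, plus strand) was at 17.6, 18.7 and 17.1 FPKM in si-NC and at 12.4, 13.3 and 13.1 FPKM in si-STRIP2, a fall of 0.46 on the log2 scale (SE 0.0450, adjusted p = 1.05e-10). KIF3A was at 4.95, 5.73 and 5.51 FPKM in si-NC and at 5.85, 5.70 and 5.59 FPKM in si-STRIP2, and its log2 fold change was 0.084 with a 95% interval from -0.031 to 0.20 (adjusted p = 0.232). The ratio of KIF3B to its obligate partner KIF3A was 3.31 ± 0.229 in the si-NC libraries and 2.27 ± 0.122 in the si-STRIP2 libraries (SD, n = 3). KIF3C was at 1.01, 1.04 and 1.02 FPKM in si-NC and at 1.01, 0.980 and 0.900 FPKM in si-STRIP2 (log2 fold change -0.086, adjusted p = 0.573). KIF17, the homodimeric kinesin-2, had 13 to 22 counts per library, with a log2 fold change of -0.039 (adjusted p = 0.923). KIFAP3 rose from 5.45 to 6.84 FPKM (log2 fold change 0.33, adjusted p = 4.43e-05).

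Kinesin-3 transport motors carry vesicles and endosomes over long distances. KIF1C was at 17.6, 17.2 and 16.7 FPKM in si-NC and at 14.1, 14.4 and 13.4 FPKM in si-STRIP2, a fall of 0.30 on the log2 scale (SE 0.0418, adjusted p = 2.03e-07). KIF13B was at 2.73, 2.90 and 2.88 FPKM in si-NC and at 1.95, 1.93 and 2.06 FPKM in si-STRIP2. Its fall of 0.52 on the log2 scale (SE 0.0669, adjusted p = 4.49e-08) was the largest among the transport kinesins, while its close relative KIF13A, at 4.44, 4.62 and 4.38 FPKM in si-NC and 4.67, 5.30 and 4.92 FPKM in si-STRIP2, had a log2 fold change of 0.14 (adjusted p = 0.0215). The call of KIF13A was lost under 7 of 15 alternatives, with adjusted p-values from 0.00437 to 1.00. KIF16B, a motor of early endosomes, rose from 2.08, 2.14 and 2.02 FPKM to 2.77, 2.49 and 2.66 FPKM (log2 fold change 0.34, SE 0.0784, adjusted p = 0.000378). KIF1B, which carries mitochondria and vesicles, was at 4.91, 5.38 and 4.86 FPKM in si-NC and at 4.90, 5.23 and 4.92 FPKM in si-STRIP2. Its 95% interval from -0.10 to 0.076 on the log2 scale was as narrow as that of KIF15.

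The minus-end directed kinesin-14 motors outside mitosis are KIFC2 and KIFC3. KIFC3, which acts at adherens junctions and the Golgi, was at 1.64, 1.63 and 1.78 FPKM in si-NC and at 1.4, 1.5 and 1.39 FPKM in si-STRIP2, a fall of 0.24 on the log2 scale (SE 0.0855, adjusted p = 0.0167). It lost its call under 6 of 15 alternatives. KIFC2 was at 2.95, 2.48 and 3.93 FPKM in si-NC and at 3.35, 3.38 and 3.19 FPKM in si-STRIP2, and the si-STRIP2 libraries lay inside the spread of the si-NC libraries (adjusted p = 0.525). The si-NC libraries had the same order in KIFC2 and in the mitochondrial share of counts, 7.28%, 4.88% and 8.88%, whose part in the spread was not tested, and without si-NC replicate 3 KIFC2 had an adjusted p of 0.0234 with a log2 fold change of 0.27.

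Among the other kinesins, 3 of the 9 tested were called (33.3%, against 54.8% of all genes tested). The share called depends on level, at 69.2% of genes with at least 5 FPKM in si-NC. Of the 9, only KIF21A reached that level, so the share over all genes is not matched to this class. KIF21B, a kinesin-4 that restrains microtubule growth, was at 1.95, 2.02 and 1.94 FPKM in si-NC and at 1.36, 1.23 and 1.14 FPKM in si-STRIP2. It fell to 63.1% of the control level (log2 fold change -0.67, SE 0.0784, adjusted p = 7.15e-09), whereas KIF21A, at 8.04, 8.50 and 8.40 FPKM in si-NC and 8.58, 8.44 and 9.10 FPKM in si-STRIP2, was not called (log2 fold change 0.064, adjusted p = 0.229). KIF26B, an atypical kinesin without ATPase activity, had 50, 48 and 35 counts in si-NC and 18, 9 and 13 counts in si-STRIP2. Its log2 fold change of -1.66 (SE 0.272, adjusted p = 3.64e-06) was the largest in the family, and it rests on a mean of 0.163 FPKM in si-NC and 0.0533 FPKM in si-STRIP2. KIF7, a scaffold of Hedgehog signalling, had 11, 14 and 12 counts in si-NC and 25, 18 and 19 counts in si-STRIP2. Its log2 fold change of 0.80 (SE 0.315, adjusted p = 0.0310) is uncertain, since TICRR on the opposite strand held 4360% as many counts and itself rose by 0.69 on the log2 scale. Its call was lost under 8 of 14 alternatives.

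The 6 other kinesins of this class that were tested and not called were KIF9, KIF12, KIF21A, KIF24, KIF26A and KIF27. KIF24, which caps the mother centriole and restrains ciliation, was at 2.32, 2.41 and 2.53 FPKM in si-NC and at 2.67, 2.22 and 2.52 FPKM in si-STRIP2 (log2 fold change 0.030, adjusted p = 0.792). KIF27 was at 1.44, 1.27 and 1.54 FPKM and at 1.78, 1.57 and 1.44 FPKM, KIF9 at 1.10, 1.22 and 1.32 FPKM and at 1.23, 1.07 and 1.36 FPKM, and KIF26A at 0.950, 1.17 and 1.24 FPKM and at 1.29, 1.04 and 1.19 FPKM. The groups overlapped in each of these genes. UBAP1 and KLHL18, on the strand opposite to KIF24 and KIF9, held 455% and 438% as many counts. KIF12 was at 0.333 ± 0.0643 and 0.507 ± 0.121 FPKM (SD, n = 3; adjusted p = 0.0559). Without si-STRIP2 replicate 3 it was called, with a log2 fold change of 0.785 and an adjusted p of 0.0313.

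Summed over the class, the mitotic kinesins were at 236.7, 247 and 239 FPKM in si-NC and at 287, 289 and 279 FPKM in si-STRIP2, and the transport kinesins at 183, 195 and 181 FPKM and at 141, 146 and 144 FPKM. The groups did not overlap in either sum, as was the case for 59.3% of all genes tested taken singly. The ratio of the mitotic to the transport sum was 1.29 ± 0.0282 in the si-NC libraries and 1.99 ± 0.0460 in the si-STRIP2 libraries (SD, n = 3). Without KIF5B the transport sum was 62.5 ± 1.17 FPKM and 54.8 ± 1.01 FPKM. The sum of the other class was 17.1 ± 0.684 FPKM and 17.2 ± 0.675 FPKM. These sums describe the members, which were chosen with earlier results of these data known, and no test was made on them. They, like all ratios between kinesins given here, depend on the deposited exonic sizes.

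**Figure D4:**
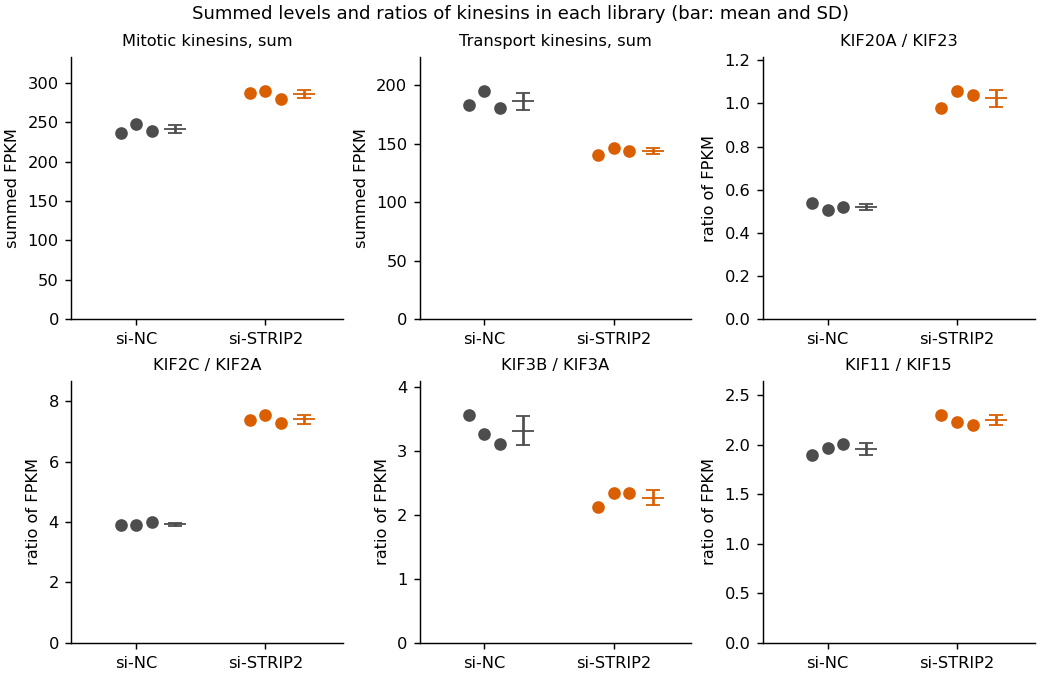
Summed FPKM of the mitotic and of the transport kinesins and the ratio of FPKM for 4 pairs of kinesins in each library (points; the bar beside them is the mean and SD of 3 libraries), with axes from 0. The si-NC and si-STRIP2 points do not overlap in any of the 6 panels, as is the case for 59.3% of all genes tested taken singly. Each pair holds a member that was itself called higher or lower, so these ratios restate those calls.

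The partners of the mitotic kinesins were mostly higher. Of 20 genes tested, 14 rose (70%, against 27.8% of all genes tested), 2 fell (10.0%, against 27.0%) and 4 were not called, with a median log2 fold change of 0.20. The genes with the smallest adjusted p were ANLN, CDCA8 and AURKA. ANLN, the actin scaffold of the cleavage furrow, fell from 35.4 ± 1.12 to 22.1 ± 0.375 FPKM (SD, n = 3; log2 fold change -0.68, adjusted p = 4.99e-16). CDCA8 (borealin), a subunit of the chromosomal passenger complex that KIF20A carries, rose from 27.3 ± 0.397 to 37.3 ± 2.03 FPKM (log2 fold change 0.45), and AURKA, the spindle pole kinase, from 27.1 ± 1.55 to 36.6 ± 1.34 FPKM (log2 fold change 0.43). CENPE, the kinesin-7 motor of the kinetochore that the naming rule does not match, rose by 0.35 on the log2 scale (SE 0.0434, adjusted p = 1.85e-08). CEP55, which is recruited to the midbody for abscission, was the other gene that fell, by 0.27 on the log2 scale. RACGAP1, the partner of KIF23 in centralspindlin, had a log2 fold change of 0.037 (adjusted p = 0.454), and PRC1, the partner of KIF4A, had one of 0.14 (adjusted p = 0.0604).

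Of 20 tested partners of the transport kinesins, 6 rose and 6 fell (30% each), near the 27.8% and 27.0% of all genes tested, with a median log2 fold change of -0.10. TRAK2, an adaptor that links kinesin-1 to mitochondria, fell from 12.9 ± 0.290 to 8.13 ± 0.312 FPKM (log2 fold change -0.67, adjusted p = 2.11e-14). KIFBP, which binds motor domains and blocks their attachment to microtubules, rose from 5.18 ± 0.159 to 8.44 ± 0.327 FPKM (log2 fold change 0.70, adjusted p = 2.02e-13). MAPK8IP3, an adaptor of kinesin-1 and dynein, rose by 0.44 on the log2 scale. Of the kinesin-1 light chains, KLC4 (0.54) and KLC1 (0.26) rose, KLC2 (-0.15) fell, and KLC3 had a log2 fold change of -0.28 (adjusted p = 0.0608).

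Tubulins, which form the track, were called in 9 of 14 tested genes, all of them higher (64.3%, against 27.8% of all genes tested), with a median of 0.21. TUBB rose from 152.3 ± 5.17 to 274.7 ± 2.30 FPKM (log2 fold change 0.85, SE 0.0434, adjusted p = 1.4e-17), TUBB4B by 0.46 and TUBA1C by 0.36 on the log2 scale. Tubulin genes have near-identical copies and pseudogenes, so that their counts are uncertain. Of the 18 tested genes of dynein and dynactin, the motor complex that walks towards the minus end, 9 rose (50%, against 27.8% of all genes tested) and 2 fell (11.1%, against 27.0%), with a median of 0.11, and the smallest adjusted p-values were those of DYNLL1 (0.35), DCTN1 (0.33) and DYNLT3 (-0.28).

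Of 14 regulators of G2 and mitotic transcription, 5 rose (35.7%, against 27.8% of all genes tested), 1 fell (7.14%, against 27.0%) and 8 were not called, with a median of 0.038. TFDP1, MYBL2 and E2F4 had the smallest adjusted p and rose by 0.32, 0.22 and 0.23 on the log2 scale. FOXM1, an activator of G2 and mitotic genes, was at 21.2 ± 0.602 and 20.01 ± 0.293 FPKM (SD, n = 3). Its log2 fold change was -0.087 (adjusted p = 0.0775).

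**Figure D5:**
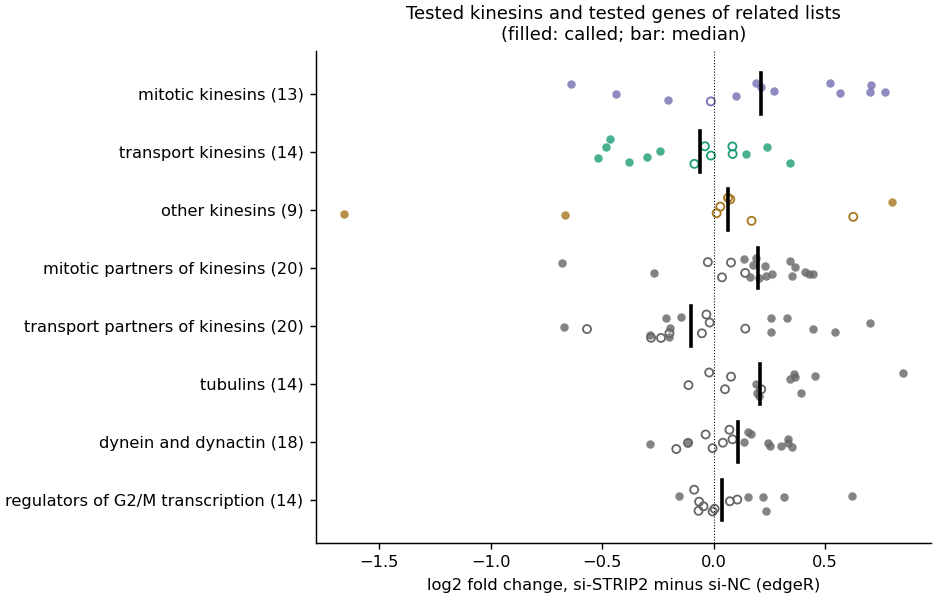
Log2 fold change (si-STRIP2 minus si-NC) of tested kinesins by class and of tested genes in 5 related lists, with the number of genes in brackets, filled points for an edgeR adjusted p under 0.05 and a black bar at the median. The medians of the mitotic kinesins, their partners and the tubulins lie near 0.2, and that of the transport kinesins at -0.063.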

How the data were processed

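Per the labels' protocols, poly(A) RNA from TRIzol extracts was made into directional libraries. The submitters' processing notes name bcl2fastq 2.20.0.422, FastQC 0.10.1, cutadapt 1.9.1, HISAT2 2.2.1, HTSeq 0.6.1 and GRCh38.p13. The annotation release and the strand setting of counting are not given in the sources used here. The authors deposited, per the file headers, a raw count and an FPKM value per gene and library. The deposited FPKM equal the count scaled by exonic size and column total, within 0.005.

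Counts were analysed in R 4.3.3 with edgeR 4.0.16, which also gave every adjusted p where no other tool is named. The filter filterByExpr with a minimum count of 10 kept 15687 genes, which hold 99.8% of counts. TMM factors ranged from 0.9905 to 1.01. The model held group alone, its quasi-likelihood F test was 2-sided, and p-values were adjusted by Benjamini-Hochberg over all genes tested. SE is the absolute log2 fold change over the square root of F, and 95% intervals are 1.96 SE. Alternatives used limma 3.58.1 and DESeq2 1.42.0. Scripts were tested on simulated data.

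The classes of kinesins and all lists were chosen with earlier results of these data known. Values in every library are given for members with at least 1 FPKM in a group mean or a call without overlap, and from each list the 3 genes with the smallest adjusted p are named. Further list genes (CENPE, CEP55, RACGAP1, PRC1, KIFAP3, the light chains and FOXM1) were named after their values were seen. Promoter sequences are those of RefSeq, and coordinates of genes those of the deposited table.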

Additional observations from a re-analysis of the deposited data

How the results depend on the processing

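Results were recomputed under 15 alternatives, and each called kinesin kept its direction in all that tested it. KIF26B, KIF7 and KIF5C were tested in 14, since they did not pass the filter of at least 1 FPKM in 3 libraries. In the main test 24 of the 36 tested kinesins were called (66.7%, against 54.8% of all genes tested). Of the 24 called kinesins, 12 were past the threshold under each alternative that tested them, and 18 (9 higher, 9 lower) under each except the test against a 1.2-fold change. KIF5C also missed it under limma on log2(FPKM + 0.1), with an adjusted p of 0.0601. The test against a 1.2-fold change called 12 of the 36 tested kinesins in place of 24, against 23.7% of all genes tested. Of these 12 kinesins, 7 were mitotic (5 higher), 3 transport (0 higher, 3 lower) and 2 other (0 higher). Higher transport kinesins numbered 1 in place of 3 under DESeq2 and under limma on log2(FPKM + 1), and 1 of 5 called under limma on log2(FPKM + 0.1). Higher other kinesins numbered 0 under DESeq2, with no filter on low counts, under limma on log2(FPKM + 1) and with at least 1 FPKM in 3 libraries, which left 1 other kinesin called (1 lower). Fewer genes tested account for the last value. The cause was not tested elsewhere.

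With each library left out in turn, 20 to 24 kinesins were called, 11 to 12 mitotic (8 to 9 higher, 3 lower) and 7 to 9 transport (1 to 3 higher, 5 to 6 lower). Over all genes, 7690 to 8495 were called in these fits, of 15948 to 16055 tested. The lowest number of higher transport kinesins, 1, came without si-NC replicate 1. Higher other kinesins numbered 0 or 1. Over the mitotic class the median log2 fold change lay between 0.165 (without si-NC replicate 1) and 0.266 (without si-NC replicate 2), and over the transport class between -0.136 (without si-NC replicate 3; -0.124 without si-STRIP2 replicate 3) and -0.061. Kinesins that were not called changed sign without 1 library, with ranges of -0.035 to 0.002 for KIF15, -0.023 to 0.102 for KIF24, -0.035 to 0.153 for KIF26A, -0.076 to 0.099 for KIF9 (-0.005 with at least 1 FPKM in 3 libraries), -0.203 to 0.107 for KIF17, -0.043 to 0.025 for KIF1B and -0.054 to 0.268 for KIFC2. With the replicate number as a block, 22 kinesins and 8293 genes were called, and KIF18A and KIF5A lost their calls. Deviations of same-numbered libraries had correlations of -0.0858, -0.0133 and -0.0718, so the numbers were not treated as pairs. The median over all genes stayed between 0.0036 and 0.046. Depth limits kinesins with few counts, whose intervals are wide, such as KIF7 (SE 0.315), KIF17 (SE 0.306), KIF12 (SE 0.279) and KIF26B (SE 0.272). KIF5C, at 0.650 FPKM in si-NC, had 280 to 456 counts per library and an SE of 0.0773.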
